A study of Mus musculus with 8 samples.

Results

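The surrogate light chain genes Igll1, Vpreb1, Vpreb2 and Vpreb3 were examined in RNA-seq libraries of mouse cells that the labels call pro-B cells, a precursor stage of B cells in the marrow. They are 4 of the 55487 genes in the deposited count table. They were chosen by gene symbol as a family, with earlier results of these data known. All 4 passed the filter on low counts, which 18884 genes passed. The libraries form 2 groups of 4, with the genotype labels WT and CD25_KO, and are numbered 1 to 4 within each group. Il2ra encodes CD25, the subunit that gives the interleukin-2 receptor its high affinity. The single comparison asks which transcripts differ in B cell precursors that lack it. The labels give no strain, age or sex, do not say how the allele was made, and do not say that the libraries of a group came from separate animals. The p-values therefore measure only the spread between these samples, part of which may be technical.

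The surrogate light chain stands in for the immunoglobulin light chain before light chain genes are rearranged. It consists of a VpreB protein, from Vpreb1 or Vpreb2, joined to lambda5, the product of Igll1, and it binds the mu heavy chain (Ighm) and the signalling pair CD79A and CD79B to form the pre-B cell receptor. Signals from this receptor drive a burst of division and select cells with a working heavy chain, after which Igll1, Vpreb1 and Vpreb2 are shut off. Vpreb3 encodes a related protein that associates with heavy chains inside the cell, is not a part of the surface receptor, and stays on in later B cell stages.

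The library checks that bear on these genes were as follows. Il2ra, the targeted gene, was measured at 193 ± 35.9 CPM (counts relative to library size, scaled with TMM factors; mean ± SD, n = 4) in wild type. The libraries labelled knockout had 181 ± 43.1 CPM, and the log2 fold change was -0.09 ± 0.19 (SE; edgeR adjusted p = 0.849). Its counts are summed over all exons, and the sources used here do not give the deleted part of the gene, so this neither bears out nor refutes the label; the group is called "labelled knockout" throughout. Cd79a, Il7r and Rag1 were present in all 8 libraries, but Kit, the receptor that defines pro-B cells in many sorting schemes, reached only 0.701 to 3.204 CPM. Igkc, the kappa constant region, was at 2734 to 3935 CPM and Ms4a1, which encodes the later marker CD20, at 596 to 839 CPM. The transcripts thus include those of stages later than the label names. Y-linked genes were on in wild type library 2 and labelled knockout libraries 2 and 4 (483 to 505 CPM in sum) and at 2.79 CPM or less in the other 5, so sex differed within each group. Wild type library 4 stood apart: 0 genes passed the adjusted p with it, and 363 without it (358 higher, 5 lower in labelled knockout), none of them a surrogate light chain gene.

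In the mouse genome (GRCm38, the build the counts use) 3 of the genes lie on chromosome 16. Igll1 (ENSMUSG00000075370.12) occupies chr16:16860671-16863985 on the minus strand, and Vpreb1 (ENSMUSG00000059305.12) lies 4.42 kb from it on the same strand, at chr16:16868403-16870843. Vpreb2 (ENSMUSG00000059280.4) lies 1.11 Mb further, on the plus strand at chr16:17980428-17981273. Vpreb3 (ENSMUSG00000000903.3) is on the plus strand of another chromosome, at chr10:75943057-75949657. The stretches just upstream of their start sites are shown because 3 of the genes varied together across the libraries and the fourth did not. They come from RefSeq on GRCm38.p6 and are read 5′ to 3′ on the gene's own strand: chr16:16863986-16864235 (minus) for Igll1, chr16:16869256-16869505 (minus) for Vpreb1, chr16:17980315-17980427 (plus) for Vpreb2 and chr10:75948050-75948299 (plus) for Vpreb3. Each ends at the base before the first exon of the coding transcript. The Vpreb1 and Vpreb3 stretches lie within the gene spans given above, and the Vpreb1 stretch holds an exon of a non-coding Vpreb1 transcript. The Vpreb2 stretch is 113 bases long where the others are 250. Capitals mark CAGNTG, the letters searched for E-boxes of the E2A type, and CCCNNGGG, those searched for paired half-sites of EBF1. E2A and EBF1 are 2 factors of the early B lineage.
Igll1: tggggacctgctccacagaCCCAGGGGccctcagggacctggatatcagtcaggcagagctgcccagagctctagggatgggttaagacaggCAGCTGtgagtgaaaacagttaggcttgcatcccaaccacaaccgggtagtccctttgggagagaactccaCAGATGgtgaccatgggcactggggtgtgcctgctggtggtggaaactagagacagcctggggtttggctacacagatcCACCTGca
Vpreb1: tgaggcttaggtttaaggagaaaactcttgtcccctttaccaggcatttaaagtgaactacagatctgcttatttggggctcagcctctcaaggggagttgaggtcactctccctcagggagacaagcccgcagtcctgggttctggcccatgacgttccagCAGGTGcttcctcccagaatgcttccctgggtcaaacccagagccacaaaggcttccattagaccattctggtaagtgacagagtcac
Vpreb2: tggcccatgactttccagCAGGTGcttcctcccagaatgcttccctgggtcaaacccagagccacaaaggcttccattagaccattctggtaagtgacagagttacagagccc
Vpreb3: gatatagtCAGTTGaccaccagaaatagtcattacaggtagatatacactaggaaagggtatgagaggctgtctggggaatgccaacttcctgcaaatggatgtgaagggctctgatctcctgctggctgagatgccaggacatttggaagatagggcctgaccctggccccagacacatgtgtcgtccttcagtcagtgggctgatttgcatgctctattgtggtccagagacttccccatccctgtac
The Igll1 stretch held 3 matches to CAGNTG, starting 158, 87 and 8 bases before its end, and the Vpreb1, Vpreb2 and Vpreb3 stretches held 1 each, at 88, 95 and 242 bases. Among 32851 mouse promoters, 44.8% held at least 1 such match in 250 bases and 23.5% in 113 bases, so a match is common. CCCNNGGG was found in Igll1 alone of the 4, at 231 bases, against 11.8% of promoters at that length. The wider E-box CANNTG (66.2% of promoters in 250 bases) gave the same 3, 1 and 1 matches in Igll1, Vpreb1 and Vpreb2 and 5 in Vpreb3. These counts include the narrower form. The letters GAGGAA, those searched for ETS factors and PU.1, were present in Vpreb1 at 81 bases and Vpreb2 at 88 bases (23.3% of promoters in 250 bases and 11% in 113). Shorter forms such as GGAA were not searched. The Ikaros core TGGGAA had no match in any of the 4 on either strand. The same held for TTCNNNGAA, the letters searched for STAT factors. The FOXO letters, TGTTTAC, and those of the TATA box, TATAAA, were also not found in these windows. Letter matches describe the sequence only. The Vpreb1 and Vpreb2 stretches were near copies, with 104 of 106 aligned bases identical (98.1%), whereas the best alignment of Igll1 with Vpreb1 covered 24 bases, 18 of them identical.

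The same near identity runs through the transcripts and limits how far Vpreb1 and Vpreb2 can be told apart. Their coding transcripts matched at 739 of 759 aligned bases (97.4%). Of all 50-base words, 18.8% of those in Vpreb1 and 32.8% of those in Vpreb2 also occur in the other gene, and 7.75% and 14.7% of 100-base words do. Igll1 and Vpreb3 shared 0 such words with any other gene. Fragments that mapped to several places were counted at each, so a fragment from a shared stretch adds to both genes. The levels of Vpreb1 and Vpreb2 are uncertain to that extent. Vpreb2 can be the more affected, since its wild type mean was 25.0 CPM where that of Vpreb1 was 112 CPM. The part of Vpreb1 fragments in the Vpreb2 counts was not measured. Vpreb1 also shares 108 exon bases with Top3b on the opposite strand, and no strand setting is recorded.

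Igll1, which encodes lambda5, was at 206, 153, 88.6 and 204 CPM in wild type libraries 1 to 4 and at 75.1, 159, 38.8 and 72.9 CPM in labelled knockout libraries 1 to 4. Labelled knockout libraries 1, 3 and 4 lay below every wild type library, and library 2 lay above wild type libraries 2 and 3, so the groups overlapped. The means were 163 ± 55.4 and 86.5 ± 51.3 CPM (SD, n = 4 each), a log2 fold change of -0.91 ± 0.40 (SE) with a 95% interval from -1.81 to -0.02. The adjusted p of the edgeR quasi-likelihood test was 0.393 over all 18884 genes, so the difference did not pass.

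Vpreb1, which encodes a VpreB chain, had a profile like that of Igll1. Its levels were 135, 102, 58.8 and 151 CPM in wild type and 58.7, 107, 30.8 and 49.6 CPM in labelled knockout libraries. Again labelled knockout libraries 1, 3 and 4 were below every wild type library, library 1 only just (58.67 against 58.76 CPM in wild type library 3), and library 2 was within the wild type range. The means were 112 ± 40.7 and 61.4 ± 32.3 CPM, with a log2 fold change of -0.86 ± 0.38, an interval from -1.72 to -0.01 and an edgeR adjusted p of 0.393.

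Vpreb2, the other VpreB gene, was at 33.2, 20.8, 12.3 and 33.8 CPM in wild type and 17.0, 24.3, 7.95 and 11.6 CPM in labelled knockout libraries. Only labelled knockout libraries 3 and 4 were below every wild type library here. The means were 25.0 ± 10.4 and 15.2 ± 7.08 CPM, and the log2 fold change of -0.72 ± 0.39 had an interval that includes no change, from -1.59 to 0.15 (edgeR adjusted p = 0.448). Summed into 1 gene, because they share fragments, Vpreb1 and Vpreb2 gave -0.84 (adjusted p = 0.396).

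Vpreb3 had another profile across the libraries. It stood at 1339, 1741, 1928 and 1404 CPM in wild type and 1276, 1465, 1295 and 1241 CPM in labelled knockout libraries. Wild type library 3, the lowest of its group for the other 3 genes, was the highest for Vpreb3, while labelled knockout libraries 1, 3 and 4 lay below every wild type library and library 2 did not. The means were 1603 ± 279 and 1319 ± 99.7 CPM, a log2 fold change of -0.28 ± 0.13 with an interval from -0.56 to -0.00 and an edgeR adjusted p of 0.395. Leaving out wild type library 3 moved it to -0.18 (adjusted p = 0.667).

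**Figure D1:**
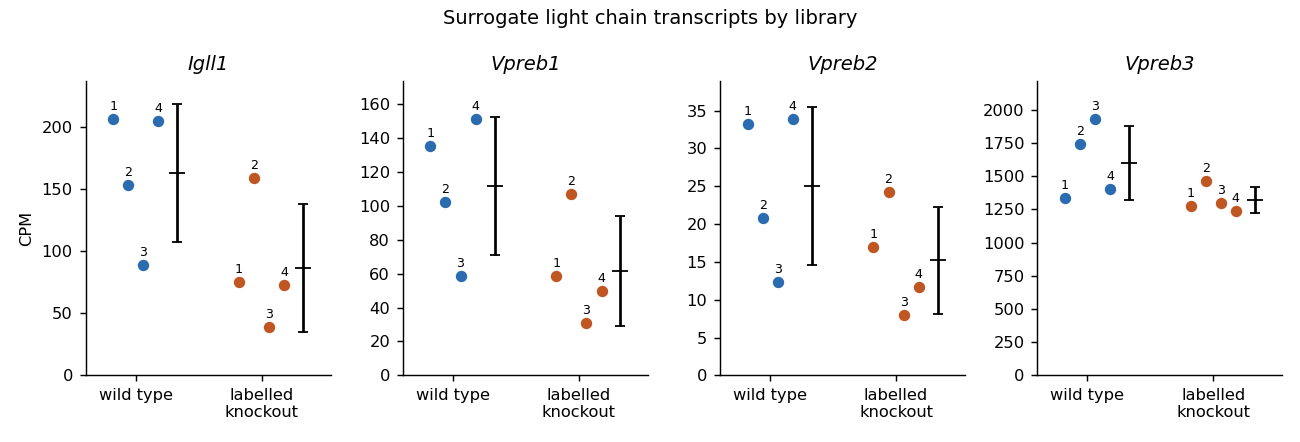
CPM (vertical axes, from 0, with a scale of its own for each gene) of Igll1, Vpreb1, Vpreb2 and Vpreb3 in the 4 wild type (blue) and 4 labelled knockout (orange) libraries, with the replicate number at each point and the mean ± SD as a bar. The groups overlap for all 4 genes, and labelled knockout library 2 lies within the wild type range in each.

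Across all genes, 0 (0% of 18884) passed an adjusted p of 0.05 in edgeR, with the smallest adjusted p at 0.391; DESeq2 called 6 and limma-voom 0, and no member was among them. At an unadjusted p under 0.05, 3 of the 4 members (Igll1, Vpreb1 and Vpreb3) were lower in labelled knockout, where 7.11% of all tested genes were; 2388 genes (12.6%) met that threshold in either direction. All 4 members had a log2 fold change below 0, as did 49.6% of tested genes, and their median was -0.79 where the median of all tested genes was 0.00. A fold change at or below that of Vpreb1 was found for 468 genes (2.48%). None of the 4 was free of overlap between the groups, as 4.17% of tested genes were with the lower values in labelled knockout. In bulk RNA, fewer cells that express a gene and less of its RNA per cell cannot be told apart.

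All 83 estimates of the members' fold changes under other settings were below 0, and none passed the adjusted p, whose smallest value was 0.100. Adding sex as a term, which compares libraries within each sex, gave -1.16 for Igll1, -1.03 for Vpreb1, -0.78 for Vpreb2 and -0.31 for Vpreb3 (edgeR adjusted p from 0.151 to 0.318). Without labelled knockout library 2, which lay within the wild type range for every member, Igll1 stood at -1.36, Vpreb1 at -1.24 and Vpreb2 at -1.01 (adjusted p = 0.301, 0.301 and 0.306). Without labelled knockout library 3, the lowest, they stood at -0.67, -0.64 and -0.51, and without wild type library 4, which stood apart, at -0.79, -0.68 and -0.54. The largest move away from the estimate for Vpreb2 came with limma-voom and quality weights, at -0.41 (adjusted p = 0.588).

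**Figure D2:**
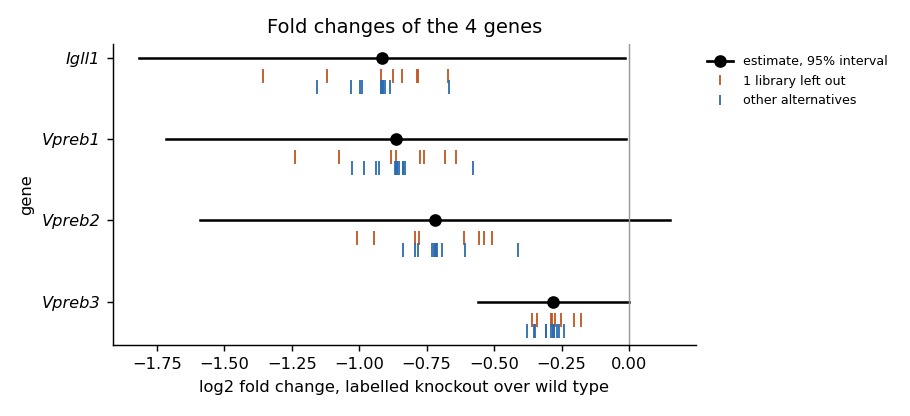
Log2 fold change of labelled knockout over wild type (horizontal axis) for the 4 genes: the edgeR estimate with its 95% interval in black, the estimates with 1 library left out as orange ticks, and those of the other alternatives as blue ticks. All ticks lie below 0, with the widest spread for Igll1 (from -1.36 to -0.67) and the narrowest for Vpreb3 (from -0.38 to -0.18).

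Compared per kilobase of exon, the level of Vpreb3 was the highest in 8 of 8 libraries, from 12.99 to 58.6 times that of Vpreb1 (median 27.1). On the scale of CPM per kilobase Vpreb3 stood at 1866 ± 325 in wild type and 1536 ± 116 in labelled knockout, Vpreb1 at 93.2 ± 34.0 and 51.2 ± 26.9, Igll1 at 75.4 ± 25.6 and 40.0 ± 23.7, and Vpreb2 at 32.98 ± 13.7 and 20.0 ± 9.33. Vpreb2 was the lowest in 8 of 8 libraries, with Igll1 at 1.552 to 2.59 times its level. The order of the middle pair rests on the length used. With the summed exon lengths of the table, Vpreb1 exceeded Igll1 in 8 of 8 libraries, by 1.19 to 1.44 times. Those sums include retained introns, 2164 bases for Igll1 where its coding transcript has 870; with the lengths of the coding transcripts Igll1 exceeded Vpreb1 in 8 of 8, by 1.11 to 1.34 times. Vpreb1 and Igll1 therefore cannot be ordered by level. Of the summed CPM of the 4 genes, Vpreb3 held 78.2% to 94.4%, with the lowest share in wild type library 1 and the highest in labelled knockout library 3.

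The 3 genes of the surface receptor varied together from library to library, and Vpreb3 did not follow them. For Igll1 and Vpreb1 the log2 CPM over the 8 libraries gave Pearson's r = 0.993 and Spearman's rho = 0.976 (exact permutation p = 7.44e-05 and 0.000397; adjusted over 6 pairs 0.000223 and 0.00119). For Igll1 and Vpreb2 the values were r = 0.958 and rho = 0.952 (exact permutation p = 0.000248 and 0.00114; adjusted 0.000496 and 0.00228). For Vpreb1 and Vpreb2, which share fragments, they were r = 0.979 and rho = 0.976 (exact permutation p = 4.96e-05 and 0.000397; adjusted 0.000223 and 0.00119). Since Vpreb2 counts can hold Vpreb1 fragments, the relation of Vpreb2 with Igll1 is not independent of that of Vpreb1. The 3 relations did not rest on the extreme libraries. Without the 2 farthest from the median, r was 0.988, 0.909 and 0.952 (exact permutation p = 0.00139, 0.0139 and 0.00278). Nor did they rest on the difference between the groups, since values centred on each group's mean gave 0.990, 0.951 and 0.979. Neither sex held the 6 libraries a correlation within it would need.

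With Vpreb3, r was 0.249 for Igll1, 0.194 for Vpreb1 and 0.04 for Vpreb2, and rho was 0.452, 0.476 and 0.333 (exact permutation p from 0.243 to 0.931; adjusted over 6 pairs, at least 0.321). Without the 2 farthest libraries r was 0.227, 0.0907 and -0.152, and after centring on group means it was -0.250, -0.316 and -0.437. The 8 libraries thus showed no relation with Vpreb3 past the test, in either direction. From its lowest to its highest library Igll1 spanned 5.31-fold, Vpreb1 4.89-fold, Vpreb2 4.25-fold and Vpreb3 1.554-fold.

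**Figure D3:**
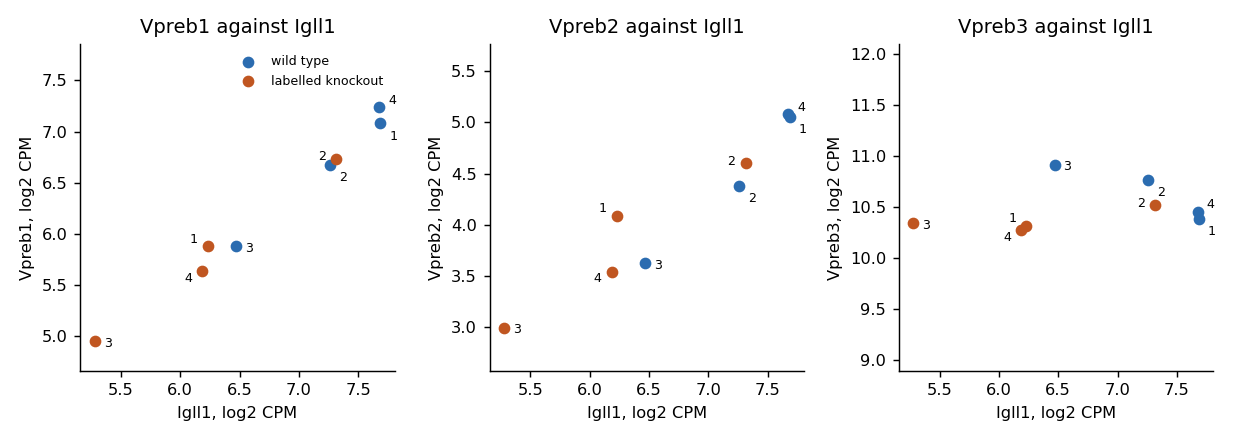
Log2 CPM of Vpreb1, Vpreb2 and Vpreb3 (vertical axes, each spanning the same number of log2 units) against log2 CPM of Igll1 (horizontal axes) in 4 wild type (blue) and 4 labelled knockout (orange) libraries, with replicate numbers. Vpreb1 and Vpreb2 climb with Igll1 through both groups (r = 0.993 and 0.958), while Vpreb3 does not (r = 0.249).

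The ratios between the members did not differ between the groups past the test. The log2 ratio of Vpreb1 to Igll1 was -0.56 ± 0.08 in wild type and -0.45 ± 0.13 in labelled knockout (SD, n = 4), a difference of 0.10 (exact permutation p = 0.171, two-sided), and that of Vpreb2 to Vpreb1 was -2.18 ± 0.12 and -1.99 ± 0.16, a difference of 0.19 (exact permutation p = 0.114). The ratio of Vpreb3 to Igll1 was 3.36 ± 0.81 and 4.11 ± 0.76, a difference of 0.75 (exact permutation p = 0.200), and that of Vpreb3 to Vpreb1 differed by 0.65 (exact permutation p = 0.286). With 4 against 4 libraries this test allows no p below 0.0286, and none of these differences passed it.

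Set against the mean log2 CPM of Cd79a and Cd79b, which measures them relative to RNA of the B lineage receptor partners, the members also had lower means in labelled knockout. Igll1 differed by -1.07 (-4.05 ± 0.66 in wild type, -5.12 ± 0.89 in labelled knockout, SD, n = 4; exact permutation p = 0.114), Vpreb1 by -0.97 (exact permutation p = 0.143) and Vpreb2 by -0.78 (exact permutation p = 0.200). Vpreb3 differed by -0.32 (-0.70 ± 0.16 against -1.02 ± 0.18; exact permutation p = 0.0571). Adjusted over the 8 ratio tests no p was below 0.229.

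The gene whose profile over the 8 libraries was most like those of Igll1, Vpreb1 and Vpreb2 was the same each time among 8682 protein-coding genes searched: Dntt, which encodes terminal deoxynucleotidyl transferase, the enzyme that adds untemplated bases at rearranged joints (r = 0.980, 0.978 and 0.969, over 8 libraries, as a description). Dntt was at 119, 67.7, 30.5 and 100 CPM in wild type and 34.8, 80.2, 16.2 and 37.4 CPM in labelled knockout libraries, with a log2 fold change of -0.91 ± 0.50 (edgeR adjusted p = 0.450). Like the 3 members it was highest in wild type libraries 1 and 4, lowest in labelled knockout library 3, and overlapped between the groups. Car2, a carbonic anhydrase gene that was also on the list of erythroid markers, came next for Igll1 and Vpreb1 (r = 0.969 and 0.956), with a log2 fold change of -0.56 ± 0.26. Abcg2, a membrane transporter gene, came next for Vpreb2 (r = 0.963), and Gimap4, a GTPase gene of lymphocytes, was the last of the 3 named for each (r = 0.962, 0.946 and 0.937). For Vpreb3 the leading genes were others: Tmem14c (r = 0.983), Taf12 and Snx6 (both r = 0.971), with log2 fold changes of -0.21 ± 0.09, -0.19 ± 0.10 and -0.11 ± 0.08.

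**Figure D4:**
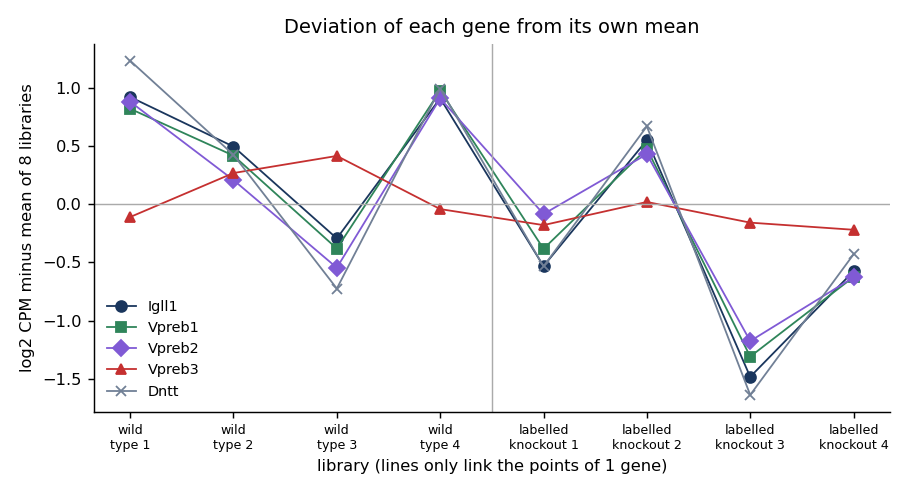
Deviation of log2 CPM from each gene's mean over the 8 libraries (vertical axis) for the 4 members and Dntt, by library (horizontal axis; the lines only link points of 1 gene). Igll1, Vpreb1, Vpreb2 and Dntt move together and are lowest in labelled knockout library 3, whereas Vpreb3 is highest in wild type library 3 and spans a narrower range.

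Genes around the members had both higher and lower values in labelled knockout. Of 19 other tested genes within 100 kb of a member, 12 were higher and 7 lower (9515 and 9369 of all 18884 tested genes), and their median log2 fold change was 0.26. None passed the adjusted p, and 5 had an unadjusted p under 0.05, all of them higher, where 5.53% of tested genes did. Next to Vpreb1, Top3b, a topoisomerase gene that overlaps it on the other strand, was at 99.4 ± 2.37 CPM in wild type and 116 ± 15.6 CPM in labelled knockout (log2 fold change 0.22 ± 0.11, edgeR adjusted p = 0.408). Ppm1f, a phosphatase gene further from Vpreb1 on the same side, had -0.26 ± 0.18 (adjusted p = 0.543). Near Vpreb2, Dgcr2, Dgcr6 and Ess2 had 0.56 ± 0.23, 0.79 ± 0.35 and 0.24 ± 0.09, and near Vpreb3, Smarcb1, a chromatin remodelling subunit, had 0.62 ± 0.21 and Mmp11, a matrix metalloproteinase, 0.77 ± 0.28 (adjusted p from 0.391 to 0.394). Dgcr2, Dgcr6 and Mmp11 passed the adjusted p once wild type library 4 was left out (adjusted p = 0.0499, 0.0493 and 0.0499), where 1.86% of tested genes did. With a sex term as well, 9 of the 19 passed, all with higher values, where 16% of tested genes did.

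Among the genes that work with the surrogate light chain, none of those tested passed the adjusted p. Its receptor partners had fold changes near 0. Ighm was at 13207 ± 944 CPM in wild type and 14000.0 ± 1025 CPM in labelled knockout (log2 fold change 0.08 ± 0.08), and Cd79a had 0.13 ± 0.11 and Cd79b -0.03 ± 0.09. Of 18 genes of pre-B cell receptor signalling, 12 had higher and 6 lower values (10 and 8 with upper quartile factors), with a median of 0.14, and 3 had an unadjusted p under 0.05, all higher, where 5.53% of tested genes did. The 2 with the smallest p were Pik3ap1, an adaptor for phosphoinositide 3-kinase (0.53 ± 0.18), and Plcg2, phospholipase C gamma 2 (0.47 ± 0.16; edgeR adjusted p = 0.391 for both). Neither overlapped between the groups, as 2.62% of tested genes did not with the higher values in labelled knockout.

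Known activators of surrogate light chain transcription mostly had higher values, the opposite direction to the members. Of 11 such genes, 9 had higher and 2 lower values in labelled knockout (median log2 fold change 0.31), and 3 had an unadjusted p under 0.05, all higher, against the 5.53% of tested genes given above. Ebf1, the early B cell factor, was at 575 ± 29.97 CPM in wild type and 761 ± 144 CPM in labelled knockout (0.40 ± 0.13), and Foxo1, a forkhead factor, had 0.46 ± 0.15 (adjusted p = 0.391 for both). Tcf3, which encodes E2A, had 0.83 ± 0.49 (adjusted p = 0.483), with 86.8 to 556 CPM in wild type and 290 to 643 CPM in labelled knockout. Of 10 known repressors, 7 had higher and 3 lower values (6 and 4 with upper quartile factors) with a median of 0.22, and 2, both higher, had an unadjusted p under 0.05 (the same 5.53%): Ikzf1, which encodes Ikaros (0.33 ± 0.12), and Irf8, an interferon regulatory factor (0.85 ± 0.34; adjusted p = 0.391 for both). Without wild type library 4, 1 activator and 2 repressors passed the adjusted p (1.86% of tested genes), Irf8 among them at 1.27 (adjusted p = 0.0493). With a sex term as well, 7 of the 11 activators, 3 of the 10 repressors and 3 of the 18 signalling genes did, where 16% of all tested genes did. Tcf3 and Irf8 were highest in the wild type group in library 4, at 556 and 394 CPM.

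Genes of the stages before and after were mixed. Of 14 genes of the pro-B and large pre-B stages, 10 had lower and 4 higher values (12 and 2 with upper quartile factors), with a median of -0.07; Erg, an ETS factor gene of early progenitors, had -0.63 ± 0.27 and Cd24a, the heat-stable antigen gene, -0.23 ± 0.10 (adjusted p = 0.391 and 0.395). Of 18 genes of the small pre-B and later stages, 8 had higher and 10 lower values (6 and 12 with upper quartile factors), with a median of -0.05; Cd37, a tetraspanin gene, had 0.32 ± 0.13 and Ms4a1 had -0.23 ± 0.10 (adjusted p = 0.391 and 0.395). The list of later stages holds Rag1 and Rag2, which were also counted as pro-B markers. Igll1, Vpreb1 and Vpreb2 each had a log2 fold change of -0.72 or below. Both stage lists had medians close to 0. The earlier list, with 10 lower and 4 higher genes, holds Dntt at -0.91 ± 0.50. The part of stage in the members' levels was not tested. Dntt was the stage gene nearest to these 3 members.

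Of the other 7 lists around the receptor that are plotted by fold change, cell division genes had the lowest median. All 15 had lower values in labelled knockout (13 of 15 without wild type library 4), with a median of -0.51, 9 at an unadjusted p under 0.05 (7.11% of tested genes) and 8 without overlap (4.17%); Bub1, a spindle checkpoint kinase, had -0.65 ± 0.21 and Tyms, thymidylate synthase, -0.66 ± 0.22 (edgeR adjusted p = 0.391 for both). With a sex term and without wild type library 4, 9 of the 15 passed the adjusted p (16% of tested genes), while 0 of the 4 members did. The summed level was 4205, 3902, 3759 and 4374 CPM in wild type and 2597, 3698, 1825 and 3681 CPM in labelled knockout libraries. As for Igll1, the lowest wild type library was library 3 and the lowest of all was labelled knockout library 3, and labelled knockout library 2 was the highest of its group. Unlike Igll1, whose labelled knockout library 4 was level with library 1, the sum in library 4 was near that of library 2. The part of division in the members' levels was not tested.

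**Figure D5:**
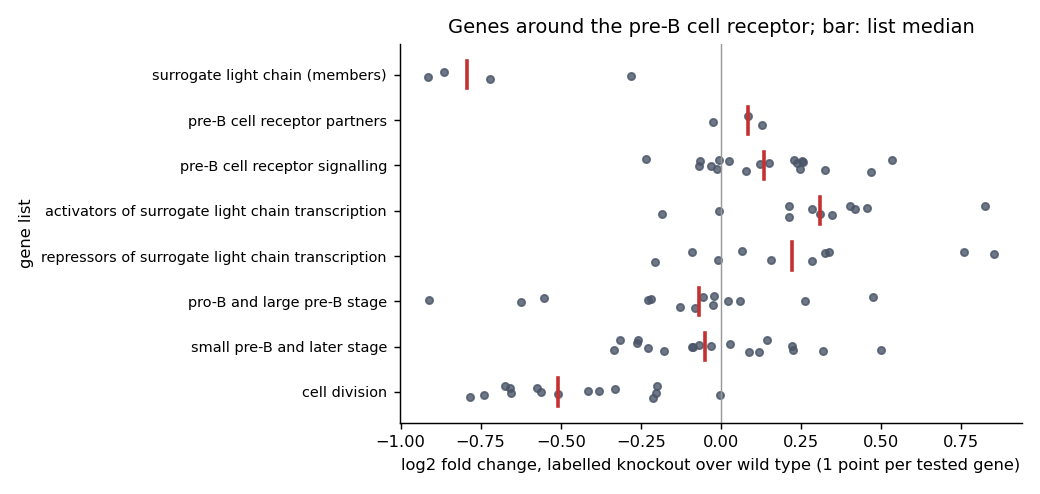
Log2 fold change of labelled knockout over wild type (horizontal axis) of each tested gene in 8 lists around the pre-B cell receptor, 1 point per gene, with the list median as a red bar. The medians of the surrogate light chain genes (-0.79) and the cell division genes (-0.51) lie farthest below 0, and those of the activators (0.31) and repressors (0.22) lie above it.

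No tested marker of another cell type passed the edgeR adjusted p, and their summed levels were not tested. At an unadjusted p under 0.05, 5 of 10 tested erythroid and 3 of 9 tested natural killer cell markers were lower (7.11% of tested genes). So were 1 monocyte and 1 dendritic cell marker, and none was higher. By median log2 fold change, the erythroid (-1.24) and natural killer cell (-0.92) lists lay below the cell division genes (-0.51). The medians of the other marker lists lay above that of the cell division genes. Those of the monocyte (-0.49, 7 of 8 tested lower) and neutrophil lists (-0.47, 11 of 11 lower) were near it. The T cell, dendritic cell, stem cell and plasma cell medians ran from -0.13 to 0.535. Of all tested genes, 49.6% were lower. Summed levels of 11 erythroid markers ran from 2967 to 8730 CPM in wild type and from 316 to 2334 CPM in labelled knockout. Those of 10 natural killer cell markers ran from 35.8 to 53.7 and from 9.46 to 31.9 CPM. Neither sum overlapped between the groups. The 11 neutrophil markers summed to 253 to 552 and 117 to 477 CPM. The 10 markers of monocytes and macrophages summed to 133 to 227 and 42.7 to 167 CPM. Both of these sums overlapped between the groups. T cell markers (29.6 to 38.0 and 21.8 to 33.6 CPM), plasma cell markers (487 to 565 and 500.1 to 620 CPM), dendritic cell markers (248 to 310 and 267 to 279 CPM) and stem cell markers (12.6 to 18.8 and 10.3 to 15.6 CPM) overlapped between the groups. No marker in these lists was at 0 over all libraries, but 9 of 10 T cell and 5 of 8 stem cell markers had means under 1 CPM. So had 3 natural killer cell, 3 erythroid, 3 dendritic cell, 2 monocyte and 1 plasma cell markers, and 0 neutrophil markers. The plasma cell list holds Irf4 and the dendritic cell list Tcf4, which were also counted among the repressors and activators. The part of other cells in the members' levels was not tested.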

How the data were processed

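RNA from 8 samples, 4 labelled WT and 4 labelled CD25_KO, was isolated with Trizol and made into libraries with a SMARTER kit, per the labels' protocols. The deposited table gives unnormalized fragment counts, made with featureCounts 2.0.1 over the exons of GENCODE M25 in paired mode, with multi-mapping fragments counted at each place, per the file headers; no strand setting is recorded there. The tools STAR 2.7.7a and GATK 4.1.9.0 and the build mm10 are named per the submitters' processing notes. The deposited table also holds each gene's exon length (unit: other), used only for levels per kilobase. Totals per library ran from 43974037 to 57988772 counts, and members had 397 to 98740 counts, so counting error was small beside the spread between libraries. No 2 libraries of a group agreed within sampling noise (chi-square over degrees of freedom at least 27.9).

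Symbols and positions came from GENCODE M21, which named 55227 of the genes; 260 stayed unnamed. Genes that passed filterByExpr were scaled with TMM factors and tested with edgeR 4.0.16 in R 4.3.3. The test was robust glmQLFit and glmQLFTest, two-sided, with group as the only term and Benjamini-Hochberg over all tested genes at 0.05. The method was also run on simulated counts, drawn for each gene on its own with no library standing apart. Log2 CPM used a prior count of 2. Ratios and correlations used exact permutation tests in scipy 1.17.1. Ratios are given against Cd79a and Cd79b; a wider set of reference genes, the first choice, is not reported here.

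The members, gene lists and tests were chosen with earlier results of these data known. Named were the 4 members, Il2ra, the 3 protein-coding genes of at least 5 CPM most correlated with each member, tested genes within 100 kb, and the 2 genes of each list with the smallest p; Kit, Igkc, Cd79b and Tcf3 were added after their values were seen, as checks of stage and role. Alternatives were RLE and upper quartile factors, other count filters, DESeq2 1.42.0, limma-voom (limma 3.58.1), no robust estimation, a replicate block, leaving out each library, leaving out gene classes, a sex term, GC correction and Vpreb1 and Vpreb2 summed. Correlations on other scales or without a library, and levels by coding transcript length, were added after seeing the data.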

Additional observations from a re-analysis of the deposited data

Results flagged for a closer look

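Of 108 groups of 4 libraries looked at, 6 held a library far from the other 3, measured as its gap to the nearest value over the group's whole range; chance gives about 1 in 20. The log2 ratio of Vpreb1 to Igll1 in wild type was -0.44 in library 4 against -0.61 to -0.58 in the others (gap over range 0.861). Slc25a1, near Vpreb2, was at 26.6 CPM in wild type library 4 against 5.22 to 8.67 CPM (0.838), and AA914427, also near Vpreb2, at 2.01 CPM in wild type library 3 against 1.08 to 1.18 CPM (0.887). Zfp280b, near Vpreb3, was at 35.8 CPM in labelled knockout library 1 against 23.6 to 24.0 CPM (0.968). Cd24a was at 2648 CPM in wild type library 2 against 2304 to 2340 CPM (0.895), and Pik3ap1 at 1235 CPM in labelled knockout library 3 against 854 to 888 CPM (0.911). No member's own CPM stood apart in this way in either group.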

How the results depend on the processing

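The members' fold changes kept their direction and stayed short of the adjusted p under all 21 alternatives. Leaving out each library gave -1.36 to -0.67 for Igll1, -1.24 to -0.64 for Vpreb1, -1.01 to -0.51 for Vpreb2 and -0.36 to -0.18 for Vpreb3. Over all genes, 0 were called, but 363 without wild type library 4 (0 to 363 when each library was left out), 3112 with a sex term as well, and 6 with DESeq2; the cause was not tested. Upper quartile factors shifted the median of all genes by -0.09. The correlation of Vpreb2 and Vpreb3 ranged from -0.19 to 0.39 with a library left out, turning to -0.02 without wild type library 2, -0.19 without labelled knockout library 3 and -0.11 without labelled knockout library 4. The mean log2 ratio of Igll1 to Vpreb1 per kilobase turned from -0.35 to 0.32 with coding transcript lengths, since the exon sums hold retained introns.

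Of 877 values for 42 other genes, 844 kept their side, 23 moved past the adjusted p and 10 changed sign, from values between -0.19 and 0.08: AA914427 (0.061 without wild type library 3, 0.023 without labelled knockout library 2), Gm16221 (0.021 with no filter, 0.044 with the replicate block, 0.317 without wild type library 2, 0.083 without labelled knockout library 2, 0.0499 with limma-voom), Gm5134 (0.0446 without labelled knockout library 4), Ighm (-0.0135 with upper quartile factors) and Il2ra (0.00709 without wild type library 2).

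With each gene centred on its group mean, the log2 CPM of libraries with the same number correlated at 0.098, 0.321, 0.196 and -0.107. For numbers 2 and 3, each library's best match in the other group had the same number. For numbers 1 and 4 it did not. The labels do not say that the numbers pair samples, so the libraries were not taken as pairs. With the replicate block 0 genes were called and Igll1 stood at -1.03, Vpreb1 at -0.93, Vpreb2 at -0.73 and Vpreb3 at -0.27 (edgeR adjusted p from 0.273 to 0.299). In the ratios the block allows no p below 0.125. Both groups hold 4 libraries, and the spread between them, not depth, sets the width of the intervals.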
